A study of Mus musculus and Homo sapiens with 12 samples.

Results

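The elements described here are all annotated copies of transposable elements of the classes LINE, LTR, SINE and DNA in the mouse genome, 3154873 of the 7078039 elements in the mouse and human tables of the series, of which 318867 had counts in at least 1 mouse library. No measured value was used to choose them. Each copy was placed by its length, its strand, its chromosome and its position relative to annotated genes. The comparison was between mouse embryonic stem cells (mES cells) of 2 groups. WT cells carry an intact Tet2 gene and Tet2-KO cells carry the Tet2-/- genotype, with 3 libraries in each group. Both lines were gifts to the study, which tells of no further clone. Both were grown in serum with LIF and the inhibitors CHIR99021 and PD0325901, and were passaged on gelatin to clear feeder cells. RNA bound to chromatin (caRNA) was enriched for 5-methylcytosine (m5C) with an antibody, and the precipitate was sequenced (meRIP–seq). The question was which copies, by place and length, differed in the precipitated RNA between Tet2-KO and WT cells. As each genotype is represented by a single line, an effect of TET2 loss cannot be told apart from another difference between the lines.

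TET2 is a dioxygenase that oxidises 5-methylcytosine in DNA and in RNA. LINE-1 (L1) elements copy themselves through an RNA made from a promoter at their own 5′ end, and most genomic copies are cut short at that end, so length separates copies that may still hold a promoter from those that lack it. Endogenous retroviruses carry a promoter in each of 2 long terminal repeats (LTRs), and many remain in the genome as a lone LTR. In mouse stem cells such elements are held down by DNA methylation and histone marks, and RNA from copies inside genes can also come from the host transcript.

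The library totals were 2199886, 3171701 and 3318565 counts in WT and 1721262, 1532029 and 1999210 in Tet2-KO, so the Tet2-KO libraries were shallower. Between 104459 and 135123 elements had counts in a library. These tables hold the precipitated fraction alone, so a difference in RNA level cannot be told apart from one in m5C, and each value is a share among the counted repeats. In bulk samples, fewer cells that make an RNA and less RNA per cell cannot be told apart either. The labels do not say whether libraries came from separate cultures, and p-values measure only the spread between libraries, which may be technical. The tables count repeats and not exons, so the targeted gene could not be checked: the counts of elements inside Tet2 were 5.1, 12.7 and 19.5 for WT against 3.60, 17.7 and 43.3 for Tet2-KO.

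Sequences of called loci are shown first, because the copies concerned are nearly alike. They were read from the GRCm38.p6 reference, whose main chromosomes are those of mm10, in the direction of the element, with every CpG in capitals. Called means an adjusted p under 0.05 in the edgeR tests described further on. All 4 called MMERGLN_LTR elements were whole proviruses of 8414 to 8420 bp. MMERGLN is a retrovirus-like family of the ERV1 group. Each provirus began and ended with an LTR of 430 bp, and the LTRs at both ends of a provirus were 100% identical. The part of the 5′ LTR that holds the position at which the 4 differed is given for the provirus on chromosome 10 (chr10:25895920-25896039, plus strand), because the copies cannot be told apart elsewhere in the LTR.
MMERGLN_LTR chr10: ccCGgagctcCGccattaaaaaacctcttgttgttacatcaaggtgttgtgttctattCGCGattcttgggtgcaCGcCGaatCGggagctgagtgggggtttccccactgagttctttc

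The called L1MdA_I elements, on chromosomes 2 and 7, were longer than the stretch of the consensus they cover. L1MdA is a young mouse L1 family whose promoter is a row of tandem repeats at the 5′ end. The excess was 4791 bp on chromosome 2 and 3149 bp on chromosome 7, and it repeated with a period of 208 bases at 98.6% and 98.2% identity, or 23.0 and 15.1 units. The excess held 5.89 and 5.84 CpG sites per 100 bases, against 1.48 in the rest of each element. The first unit of each is shown (chr2:22007107-22007314 and chr7:41175325-41175532, minus strand). Each unit held 12 CpG sites.
L1MdA_I chr2: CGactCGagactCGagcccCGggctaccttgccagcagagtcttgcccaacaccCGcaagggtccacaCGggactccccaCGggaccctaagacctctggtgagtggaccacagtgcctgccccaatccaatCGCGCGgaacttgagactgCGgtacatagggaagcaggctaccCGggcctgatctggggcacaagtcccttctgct
L1MdA_I chr7: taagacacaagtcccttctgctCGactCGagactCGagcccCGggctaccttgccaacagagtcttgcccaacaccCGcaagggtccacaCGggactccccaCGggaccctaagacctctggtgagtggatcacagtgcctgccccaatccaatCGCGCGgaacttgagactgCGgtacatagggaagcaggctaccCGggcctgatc

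The called element with the largest fitted change, an IAPEy-int on chromosome 10, is the inner part of a provirus of the IAPE type, retrovirus-like elements of the ERVK group that carry an envelope gene. Its first 120 bases (chr10:54887128-54887247, plus strand) held 9 CpG sites.
IAPEy-int chr10: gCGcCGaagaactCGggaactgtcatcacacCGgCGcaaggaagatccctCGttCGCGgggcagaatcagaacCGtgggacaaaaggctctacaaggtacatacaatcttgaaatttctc

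Long copies held most of the counts. Length classes include their lower limit and not their upper one. Elements of 5000 bp and over were 1.59% of all elements and 27.0% of their bases, and held 65.8, 66.3 and 67.3% of the counts in WT against 63.1, 65.5 and 63.8% in Tet2-KO. The groups did not overlap, and the log2 ratio of the mean shares was -0.05 (exact permutation test over libraries, two-sided, p = 0.1, the smallest that 3 against 3 libraries allow). At the other end, elements under 200 bp held 2.90, 2.52 and 2.22% in WT and 3.49, 3.64 and 3.52% in Tet2-KO, a log2 ratio of 0.48 (exact permutation p = 0.1, adjusted p = 0.15 over 6 length classes). The share of elements from 200 to 500 bp was 4.99% ± 0.326 (SD, n = 3) in WT and 6.32% ± 0.891 in Tet2-KO, also without overlap. The share of elements from 1000 to 2000 bp was lower in Tet2-KO, at 2.62% ± 0.339 against 3.35% ± 0.161 (SD, n = 3), with a log2 ratio of -0.35. From 500 to 1000 bp and from 2000 to 5000 bp the groups overlapped.

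This length pattern can be set beside the change of each subfamily. If every copy of a subfamily had changed by its subfamily's ratio, the log2 ratios would have been 0.40 under 200 bp, 0.35 from 200 to 500 bp, -0.16 from 1000 to 2000 bp and -0.08 at 5000 bp and over. The subfamily ratios come from these same counts. A subfamily with its counts in 1 class therefore matches by construction, here and wherever such ratios are given below. Among LINEs the signs for the longer copies were the other way round from that expectation. Elements of 5000 bp and over held 84.2% ± 0.441 of the LINE counts in WT and 85.8% ± 0.320 in Tet2-KO (SD, n = 3), a log2 ratio of 0.03 where the subfamilies alone gave -0.01. LINEs from 2000 to 5000 bp went from 9.39% ± 0.141 to 8.27% ± 0.224 (log2 -0.18, with 0.05 from subfamilies), and those from 1000 to 2000 bp went from 3.64% ± 0.147 to 3.02% ± 0.349 (log2 -0.27, with 0.04 from subfamilies). None of these 3 pairs of groups overlapped (exact permutation p = 0.1, adjusted p = 0.15 for each). Within the LTR class the sole length class without overlap was 1000 to 2000 bp, at a log2 ratio of -0.46 where subfamilies alone gave -0.54.

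Counts were next summed for each subfamily within 4 length classes, and bins with enough counts were tested. An adjusted p under 0.05 in the edgeR quasi-likelihood test was reached by 16 (1.6% of those tested), 4 higher and 12 lower in Tet2-KO. Values are CPM, counts scaled to a library of 1000000 counts over the tested bins, after TMM scaling. The L1MdA_I bin with a span of 5000 bp and over had 40689, 38282 and 41555 CPM in WT and 79615, 93064 and 84957 CPM in Tet2-KO. All Tet2-KO libraries lay well above all WT libraries, and the bin rose by 1.10 ± 0.07 on the log2 scale (± SE here and below, adjusted p = 0.000937 in edgeR). The shorter L1MdA_I copies did not pass: the log2 change was 0.13 ± 0.16 from 2000 to 5000 bp, 0.22 ± 0.18 from 500 to 2000 bp and -0.68 ± 0.78 under 500 bp (edgeR adjusted p from 0.58 to 0.68).

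The L1MdTf and L1MdGf families, the other young L1 groups of the mouse, were lower in Tet2-KO, and here the copies from 500 to 5000 bp had larger fitted changes than those of 5000 bp and over. L1MdTf_I copies of 5000 bp and over went from 125181, 118935 and 140176 CPM in WT to 89677, 84790 and 81954 CPM in Tet2-KO. That is a log2 change of -0.58 ± 0.07 (edgeR adjusted p = 0.012). The L1MdTf_I copies from 2000 to 5000 bp went from 6278, 6249 and 6416 CPM to 2814, 3189 and 2899 CPM, a log2 change of -1.09 ± 0.11 (edgeR adjusted p = 0.0068). From 500 to 2000 bp the L1MdTf_I change was -1.33 ± 0.21 (edgeR adjusted p = 0.026). In all 3 of these classes the groups were apart.

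L1MdTf_II followed the same order, with log2 changes of -0.65 ± 0.06, -0.88 ± 0.11 and -1.28 ± 0.16 from the longest of these classes to the shortest, and all 3 fell (edgeR adjusted p from 0.0046 to 0.015). In L1MdTf_III the class from 500 to 2000 bp fell (log2 -1.12 ± 0.20, edgeR adjusted p = 0.043), while the values were -0.98 ± 0.18 (edgeR adjusted p = 0.060) and -0.44 ± 0.09 (edgeR adjusted p = 0.082) in the longer classes. In L1MdGf_I the copies of 5000 bp and over fell by 0.57 on the log2 scale and those from 500 to 2000 bp by 1.29 (edgeR adjusted p = 0.016 and 0.026), with -1.08 ± 0.20 in between (edgeR adjusted p = 0.061). Copies under 500 bp passed the test in none of the 4 subfamilies and did not continue this order in all of them: the log2 changes were -0.25 ± 0.53 in L1MdTf_I, -1.20 ± 0.57 in L1MdTf_II, -1.37 ± 0.69 in L1MdTf_III and -0.47 ± 0.67 in L1MdGf_I.

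**Figure D1:**
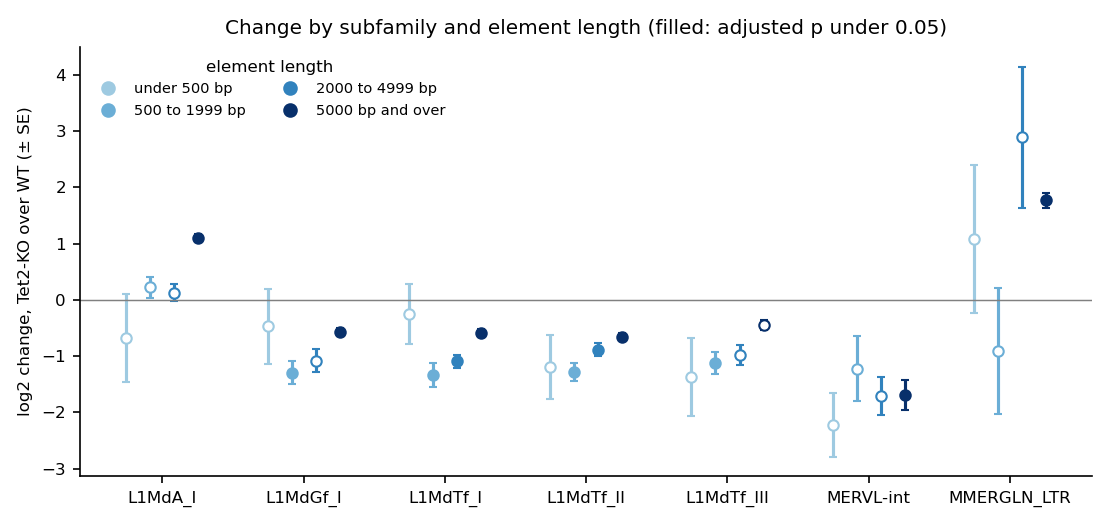
The log2 change of Tet2-KO over WT (vertical axis, ± SE) is plotted for 7 subfamilies in 4 length classes of their copies. Filled points passed an edgeR adjusted p under 0.05. L1MdA_I was called only at 5000 bp and over (1.10), while L1MdTf_I went from -0.58 at 5000 bp and over to -1.33 from 500 to 2000 bp.

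A difference between length classes can be read within a library as the share of a subfamily's counts that lay in copies under 5000 bp. For L1MdA_I this share was 10.2, 11.1 and 11.3% in WT and 6.37, 5.66 and 5.75% in Tet2-KO. For L1MdGf_I it was 12.2, 11.2 and 11.4% in WT and 7.62, 7.68 and 9.15% in Tet2-KO. In both subfamilies each Tet2-KO library was below each WT library. The shares were also lower without overlap for L1MdTf_I (6.73, 6.90 and 5.77% to 4.22, 4.83 and 4.35%), L1MdTf_II (9.38, 9.36 and 9.68% to 7.85, 7.42 and 8.02%) and L1MdTf_III (10.3, 10.97 and 11.4% to 7.15, 8.53 and 6.90%). These young L1 subfamilies thus had a smaller part of their counts in short copies in Tet2-KO whether their total was higher, as in L1MdA_I, or lower, as in the others. Over the 11 subfamilies compared, each of these had p = 0.1 in the exact permutation test (adjusted p = 0.157), which is as low as the design goes. The 11 were chosen for a called length bin in these same counts, so their shares are a description. Further subfamilies were not compared in this way. L1M2, an older L1 type, stood the other way: the share of its counts under 5000 bp was 22.4, 28.3 and 14.3% in WT and 39.6, 37.2 and 50.1% in Tet2-KO. In L1M2 the copies under 500 bp alone had a fitted change above 0 (log2 4.33 ± 0.60, with 31.1% of the counts in 1 copy), where the values were -0.12 ± 0.72 from 500 to 2000 bp, -0.57 ± 0.52 from 2000 to 5000 bp and -0.69 ± 0.22 at 5000 bp and over.

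**Figure D2:**
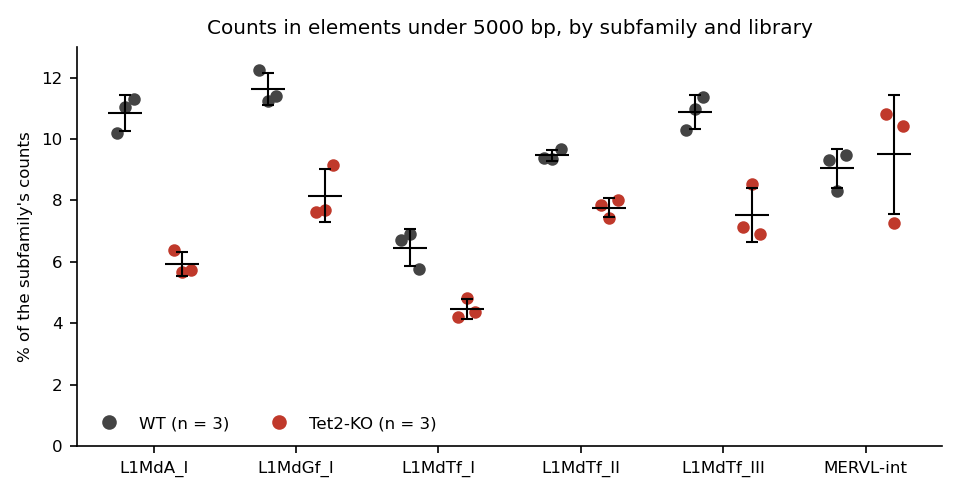
The percentage of each subfamily's counts in copies under 5000 bp (vertical axis) is shown for each library, with the mean and SD of 3 WT and 3 Tet2-KO libraries. The 5 young L1 subfamilies shown were lower in Tet2-KO without overlap (L1MdA_I at 5.66 to 6.37% against 10.2 to 11.3%), and MERVL-int overlapped.

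Among L1MdA_I copies with a span of 6 kb and over, the ratio of summed counts was larger in the longest. The median over single copies was nearly level, at 1.59 from 6 to 7 kb, 1.61 from 7 to 8 kb and 1.65 at 8 kb and over (log2 change of tested copies). In CPM of all counts, the copies with a span of 8 kb and over went from 2439, 2121 and 2066 CPM in WT to 7755, 8251 and 8890 CPM in Tet2-KO, a log2 ratio of 1.91. Those from 6 to 7 kb, the bulk of the subfamily, went from 29352, 26895 and 27321 CPM to 59279, 73561 and 62181 CPM (log2 ratio 1.22). The share of L1MdA_I counts in copies of 8 kb and over was 5.14% ± 0.316 in WT and 8.76% ± 0.866 in Tet2-KO (SD, n = 3, exact permutation p = 0.1). Without the 2 called L1MdA_I copies it was 4.92% ± 0.289 and 6.99% ± 0.771, still without overlap, and the CPM ratio was 1.62 on the log2 scale. Of 1597 L1MdA_I copies with enough counts to test singly, 1489 had a fitted change above 0. The median log2 change of the 1597 was 1.54, where that of all tested loci was 0.03. How reads were divided among such alike copies is not stated, so the number of copies that changed cannot be told. In L1MdTf_II 312 of 1421 tested copies were above 0 (median -0.31), and in L1MdGf_I 252 of 896 (median -0.36).

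Endogenous retroviruses showed no common length pattern. The MMERGLN_LTR bin at 5000 bp and over rose from 3904, 3141 and 3757 CPM in WT to 11081, 12412 and 13345 CPM in Tet2-KO (log2 change 1.77 ± 0.13, edgeR adjusted p = 0.0012). The highest of its 62 counted copies held 7.81% of the counts of that bin. The MMERGLN_LTR copies under 500 bp were uneven between libraries, at 104, 18.8 and 160 CPM in WT and 68.3, 12.2 and 515 CPM in Tet2-KO, and did not pass (log2 1.08 ± 1.31). MERVL-int, the inner part of a retrovirus-like element known for its expression in the 2-cell embryo, fell at 5000 bp and over from 17258, 18891 and 15598 CPM to 7030, 5725 and 3264 CPM (log2 change -1.69 ± 0.27, edgeR adjusted p = 0.026). Its shorter classes had fitted changes from -2.22 to -1.22 and did not pass, and the share of MERVL-int counts under 5000 bp overlapped between the groups (exact permutation p = 0.7). The MTA_Mm copies from 500 to 2000 bp, LTR elements of the MaLR group, fell from 5638, 5916 and 4820 CPM to 1936, 2348 and 2696 CPM (log2 change -1.23 ± 0.17, edgeR adjusted p = 0.016).

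Some called bins rested on few copies or low counts. L1ME3G copies from 500 to 2000 bp, an old L1 type, went from 1.85, 1.30 and 0.997 CPM to 119, 73.2 and 399 CPM (log2 change 7.12 ± 0.99, edgeR adjusted p = 0.016). L1M2 copies under 500 bp went from 17.6, 17.5 and 15.9 CPM to 209, 248 and 573 CPM, with 31.1% of the counts in 1 copy (log2 change 4.33 ± 0.60, edgeR adjusted p = 0.016). In the other direction RMER12C copies under 500 bp, LTR-type fragments, fell from 572, 231 and 935 CPM to 17.6, 40.9 and 32.4 CPM, with 40.3% of the counts in 1 copy (log2 change -4.25 ± 0.68, edgeR adjusted p = 0.027). Leaving out a library left 3 to 10 called bins, and the L1MdA_I and MMERGLN_LTR bins at 5000 bp and over were called in each of those fits.

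Short loci were measured less evenly than long ones. Of elements with at least 50 counts, 72.1% of those under 200 bp had 90% or more of their counts in a single library, against 3.15% of those of 5000 bp and over. Of 19030 elements with enough counts for a test of single loci, 120 were under 200 bp and 618 were from 200 to 500 bp. The median log2 change of the 200 to 500 bp elements was 0.86, and 581 of them were of the LTR class. Whether an LTR stood alone or beside the inner part of a provirus was not checked. IAPLTR1_Mm, the LTR of intracisternal A particles, had 160 of 224 tested copies above 0 (median 1.12). IAPLTR1a_Mm had 90 of 146 (median 0.57), RLTR10C 66 of 73 (median 1.28) and ERVB7_1-LTR_MM 42 of 48 (median 1.02). In the class from 1000 to 2000 bp the median of the 511 tested elements was -0.87. LINEs were 391 of these, and L1MdTf_II had 11 of 99 above 0 there (median -1.59) while L1MdA_I had 23 of 31 (median 1.31). The median over all 19030 loci was 0.03, with 51.4% above 0. The copies of 1 subfamily share libraries and sequence, and are not replicates of the genotype.

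Single loci were then tested over all 19030 elements. At an adjusted p under 0.05, 9 were called (0.0473% of those tested), all higher in Tet2-KO, while the unadjusted p was under 0.05 for 4000 loci. Values are CPM of the tested loci after TMM scaling. Of the 9, 4 were the MMERGLN_LTR proviruses with the LTR shown above. The provirus at chr8:121832845-121841264 lay in an exon of Gm20388, on the same strand, and touched Gm42047. It had 107, 48.2 and 62.1 CPM in WT and 1739, 1588 and 1901 CPM in Tet2-KO (log2 change 4.59 ± 0.35, edgeR adjusted p = 0.026). The provirus at chr2:94801064-94809477, 8728 bp from Gm26396, went from 72.4, 86.2 and 137 CPM to 857, 1038 and 1228 CPM (log2 3.40 ± 0.31, edgeR adjusted p = 0.041). The copy at chr4:51871449-51879864, 13029 bp from Gm12461, went from 112, 113 and 124 CPM to 687, 913 and 1071 CPM (log2 2.94 ± 0.23, edgeR adjusted p = 0.026). The copy at chr10:25895611-25904025 spans the whole lincRNA gene Gm47939 in sense, and went from 149, 189 and 167 CPM to 656, 734 and 870 CPM (log2 2.16 ± 0.21, edgeR adjusted p = 0.043). At all 4, each Tet2-KO library was above each WT library. The 5′ LTRs of the 4 differed at 1 position, counted from 1 at the 5′ end of the LTR: C370T, with the chromosome 10 base first and the chromosome 8 base last, which left 14 CpG sites in the chromosome 8 LTR and 15 in each of the others. Most other tested MMERGLN_LTR copies stood on the same side: 48 of 49 had a fitted change above 0 (median 2.00). Without the 4 called proviruses the subfamily still went from 3116 ± 436 to 9683 ± 1224 CPM of all counts (SD, n = 3), a log2 ratio of 1.64 against 1.88 with them.

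The 2 called L1MdA_I copies were those whose tandem repeats are shown above. Other L1MdA_I copies were not examined for such repeats. The copy at chr2:21995961-22007314 on the minus strand was intergenic, 60512 bp from Gm13337, and went from 71.0, 64.2 and 42.2 CPM in WT to 1128, 1345 and 1366 CPM in Tet2-KO (log2 change 4.44 ± 0.27, edgeR adjusted p = 0.020). The copy at chr7:41165821-41175532 on the minus strand lay in an intron of overlapping genes on both strands, Gm5592 and Gm44748, and went from 56.5, 28.3 and 59.8 CPM to 971, 1176 and 1159 CPM (log2 4.51 ± 0.35, edgeR adjusted p = 0.026). Both were more than an order of magnitude above WT in each Tet2-KO library.

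The remaining 3 called loci were an IAPEy-int, an L1MdF_III and an Lx8. The IAPEy-int at chr10:54887128-54890892 on the plus strand was far from genes, 166301 bp from Gm31849, and had 0.966, 1.40 and 1.66 CPM in WT and 90.6, 237 and 155 CPM in Tet2-KO (log2 6.82 ± 0.56, edgeR adjusted p = 0.026). Its WT values rest on 1.67 to 5.40 counts a library. The L1MdF_III at chr14:42280716-42283187 on the minus strand, 254 bp from Gm25892, had 6.28, 4.54 and 2.99 CPM in WT and 124, 254 and 172 CPM in Tet2-KO (log2 5.31 ± 0.48, edgeR adjusted p = 0.041). The Lx8, an old L1 type, at chr15:93232470-93246924 covered a span of 14455 bp for 926 bases of its consensus, overlapped 20 other annotated elements and touched Gxylt1. It went from 159, 115 and 173 CPM to 1106, 2012 and 1217 CPM (log2 3.28 ± 0.32, edgeR adjusted p = 0.043). In none of the 9 did the groups overlap, which was so for 5279 of all 19030 tested loci (27.7%).

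**Figure D3:**
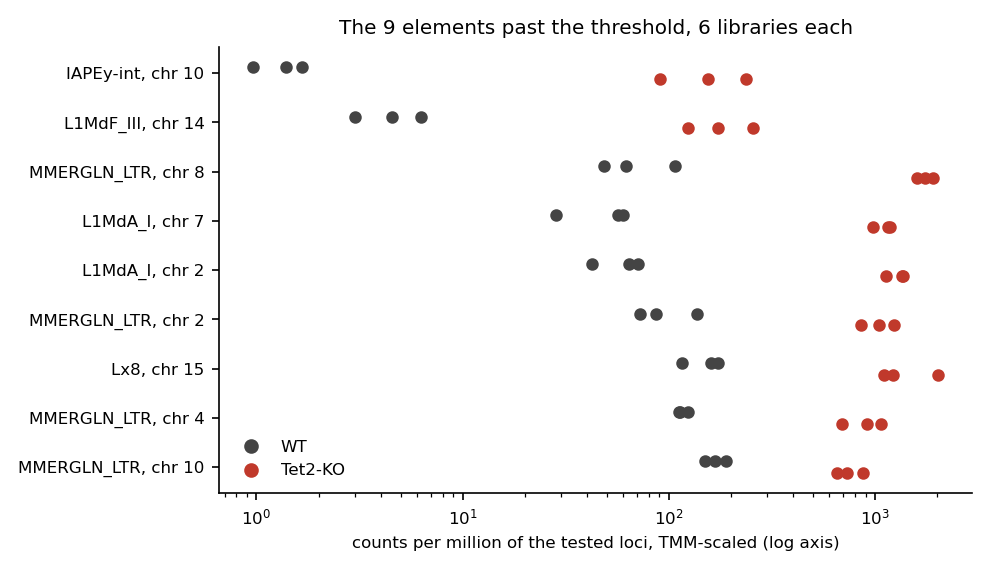
CPM of the tested loci after TMM scaling (horizontal log axis) is shown in each of the 6 libraries for the 9 called elements. WT libraries lie below Tet2-KO libraries at all 9, from 0.966 to 1.66 against 90.6 to 237 CPM for IAPEy-int and from 149 to 189 against 656 to 870 CPM for MMERGLN_LTR on chromosome 10.

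None of the 9 calls held when any 1 library was left out (edgeR adjusted p from 0.0800 to 0.246), while the sign was the same in all 12 settings tried. The copies also share sequence with their relatives. Of the 31-base words of the called MMERGLN_LTR proviruses, 94.3% (chromosome 8) to 97.8% (chromosome 2) occurred in at least 1 of 64 other copies of the subfamily. The figure was 99.2% and 99.9% for the L1MdA_I copies on chromosomes 2 and 7, and 82.4% for the IAPEy-int. How the authors' counting divided reads among such copies is not stated, so a value at 1 copy may hold reads of others.

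The most abundant elements were not among the called ones. The highest was an MMVL30-int, the inner part of a VL30 retrotransposon, at chr11:86812241-86815876, with 33315, 53642 and 49640 counts in WT against 33475, 28606 and 42141 in Tet2-KO (log2 change 0.60 ± 0.14, edgeR adjusted p = 0.103). MMVL30-int copies on chromosomes 19, 18 and 13 had log2 changes of 0.49 ± 0.12, 0.44 ± 0.17 and 0.66 ± 0.22 (edgeR adjusted p from 0.108 to 0.214). An MTE2b on chromosome 14, in an intron of Gm15218, had 0.86 ± 0.76, and was -0.13 without Tet2-KO replicate 1.

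Position relative to genes moved the counts little. Elements in introns held 28.2% ± 0.640 of the counts in WT and 27.8% ± 0.775 in Tet2-KO (SD, n = 3, exact permutation p = 0.5), and those within 10 kb of a gene held 28.2% ± 0.355 and 29.3% ± 0.850 (p = 0.2 in the same permutation test). Elements beyond 10 kb held 41.7, 41.9 and 42.9% in WT and 41.1, 41.4 and 40.9% in Tet2-KO, which did not overlap by a narrow margin (log2 ratio -0.04). Elements in exons held 1.35, 1.62 and 1.34% in WT and 1.70, 1.86 and 1.67% in Tet2-KO, without overlap (log2 ratio 0.28, with 0.42 from subfamily changes alone). Both of the last had p = 0.1 in the exact permutation test, adjusted p = 0.2 over 4 contexts. By number, exons held 2.51% of all elements, introns 44.2% and the regions beyond 10 kb 32.3%.

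Split by class, LINE counts in introns went from 18.6, 18.5 and 19.3% of all counts in WT to 16.5, 16.9 and 16.5% in Tet2-KO, and LINE shares within 10 kb of genes and beyond were also lower without overlap. LTR elements were higher in exons (log2 ratio 0.45), within 10 kb (0.20) and beyond 10 kb (0.20) without overlap, and in introns they overlapped. SINE elements, short non-autonomous copies, went in introns from 1.53, 1.38 and 1.23% to 2.01, 2.06 and 1.85% (log2 ratio 0.52). The adjusted p over the 16 pairs of class and context was at least 0.145 in the exact permutation test.

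Strand gave no difference beyond the spread. Of the counts in genes with a single orientation, 39.7% ± 1.02 in WT and 38.8% ± 2.06 in Tet2-KO were from elements in sense to the host gene (SD, n = 3, exact permutation p = 0.5). Elements on the plus strand of the genome held 49.8% ± 0.554 and 49.4% ± 1.36 of the counts (exact permutation p = 0.8). The median log2 change of single tested loci was -0.13 for 1810 in sense, -0.03 for 2973 antisense and 0.07 for 14063 intergenic elements.

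Most subfamilies named here had fitted changes of the same sign inside and outside genes. Counts summed per subfamily in sense, antisense and intergenic copies gave 1044 tested bins, of which 24 were called (2.3% of those tested), 7 higher and 17 lower in Tet2-KO. MMERGLN_LTR rose by 1.99 ± 0.17 in sense, 1.68 ± 0.24 antisense and 1.62 ± 0.17 between genes on the log2 scale (edgeR adjusted p from 0.0031 to 0.015), with 30.3% of the sense counts and 43.8% of the antisense counts in 1 copy. MERVL-int fell in all 3 places, with log2 changes of -1.83 ± 0.30, -1.80 ± 0.29 and -1.67 ± 0.26 (edgeR adjusted p from 0.019 to 0.026). L1MdTf_I, L1MdTf_II and L1MdGf_I were called lower in all 3 as well, and their 9 log2 changes lay between -0.75 and -0.65. L1MdTf_III was called between genes alone (-0.55 ± 0.09), though its values in sense (-0.52 ± 0.12) and antisense (-0.50 ± 0.14) were close to that. L1MdA_III (-0.45 ± 0.08) and L1MdF_I (-0.56 ± 0.10) were also called lower between genes alone (edgeR adjusted p = 0.026 for each). The L1MdA_III values were -0.77 ± 0.18 in sense and -0.27 ± 0.12 antisense. L1MdGf_II copies antisense to genes fell with a log2 change of -1.02 ± 0.19 (edgeR adjusted p = 0.045), where the values were -0.72 ± 0.22 in sense and -0.47 ± 0.13 between genes. MTA_Mm copies between genes fell with -1.37 ± 0.18 (edgeR adjusted p = 0.012), where the values were -1.14 ± 0.38 in sense and -0.99 ± 0.41 antisense. L1ME3G copies between genes went from 3.36, 4.97 and 2.39 CPM to 112, 63.1 and 195 CPM (log2 change 5.09 ± 0.75, edgeR adjusted p = 0.019). L1ME3G was the exception in sign: its antisense copies had 12.5, 10.3 and 13.3 CPM in WT and 2.85, 3.68 and 1.93 CPM in Tet2-KO (log2 change -2.08 ± 0.45, edgeR adjusted p = 0.093), and its sense copies were at 3.19 ± 1.35.

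L1MdA_I rose in all 3 contexts but less in sense: the log2 change was 0.60 ± 0.09 in sense, 1.04 ± 0.10 antisense and 1.00 ± 0.08 between genes (edgeR adjusted p = 0.019, 0.0037 and 0.0031). Its sense share of the counts in genes was 43.3, 47.9 and 46.9% in WT and 39.96, 38.1 and 37.3% in Tet2-KO, without overlap (exact permutation p = 0.1, adjusted p = 0.4 over 12 subfamilies). A single element carried this difference. It lay at chr1:24611230-24616803 on the minus strand, with a span of 5574 bp for 2689 bases of the L1 consensus, and 4649 of its bases lay in 31-base words that also occur in the mitochondrial genome. It touched 7 annotated pseudogenes, Gm10925 among them, and held 19.9% of the L1MdA_I sense counts. It had 3438, 6237 and 5327 counts in WT against 1103, 1421 and 2403 in Tet2-KO (log2 -0.61 ± 0.28, edgeR adjusted p = 0.267). Without it the sense share was 35.5, 37.8 and 38.8% in WT and 38.2, 35.9 and 34.1% in Tet2-KO, which overlapped (exact permutation p = 0.5), and the ratio of sense CPM went from 0.77 to 1.14 on the log2 scale. The ratio of L1MdA_I copies from 5 to 6 kb went from 0.31 to 1.21 when the same element was left out. Of 9320 tested loci with a mean of at least 50 counts, 2 held at least 100 such bases, and the other was an L1MdA_II on chromosome 12.

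**Figure D4:**
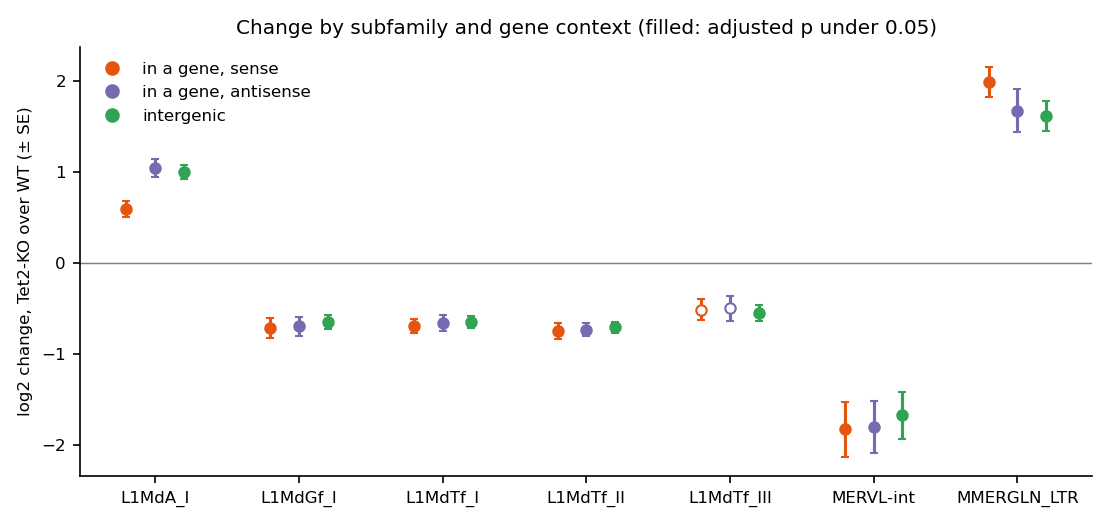
The log2 change of Tet2-KO over WT (vertical axis, ± SE) is plotted for 7 subfamilies in copies that lie in a gene in sense, in a gene antisense, or between genes. Filled points passed an edgeR adjusted p under 0.05. Within each subfamily the 3 values have the same sign. They lie furthest apart in L1MdA_I (0.60 in sense against 1.04 and 1.00) and MMERGLN_LTR (1.99 in sense against 1.68 and 1.62). For L1MdA_I in sense, 1 element with mitochondrial sequence holds 19.9% of the counts.

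Of the 21 chromosomes, 12 had shares of counts that did not overlap between the groups, 5 higher and 7 lower in Tet2-KO (exact permutation p = 0.1 each, adjusted p = 0.175). All were small. The log2 ratio was 0.08 on chromosomes 4 and 7, 0.11 on 8, 0.14 on 11 and 0.13 on 19, and it was -0.11 on chromosome 2, -0.09 on 6, -0.10 on 9, -0.05 on 15, -0.09 on 16, -0.05 on 18 and -0.06 on X. On 11 of the 12 the sign was that given by the chromosome's mix of subfamilies, with chromosome 7 the exception (-0.04 from subfamilies). Over all 21 chromosomes this was so for 17. Without the 10 most abundant elements, 6 chromosomes remained apart: 2, 4, 6, 7, 8 and X.

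On chromosome 2 the difference lay in 1 stretch. Elements from 175 to 178 Mb, a region with a cluster of zinc finger genes, held 1.42, 1.14 and 1.18% of all counts in WT and 0.597, 0.748 and 0.739% in Tet2-KO (log2 ratio -0.84, exact permutation p = 0.1). The rest of the chromosome held 5.60, 5.86 and 5.78% in WT and 5.97, 5.76 and 5.68% in Tet2-KO, which overlapped (log2 ratio 0.01). The stretch was picked from the windows described next, so these shares are a description. It had 915 counted elements, and 113 of the 158 tested ones had a fitted change below 0 (median -0.82). L1MdV_I, an older L1 type, made 23.7% of the difference there (log2 ratio -1.30), MTA_Mm 21.9% (-1.93) and L1MdN_I 16% (-1.16). RMER12C had 511, 204 and 835 CPM of all counts in WT and 0 in each Tet2-KO library, at least 298-fold lower against a floor of 3 counts per library, and MTE-int had 446, 219 and 276 in WT and 0 in Tet2-KO, at least 181-fold lower. Floors and intervals of this kind cover counting error only.

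**Figure D5:**
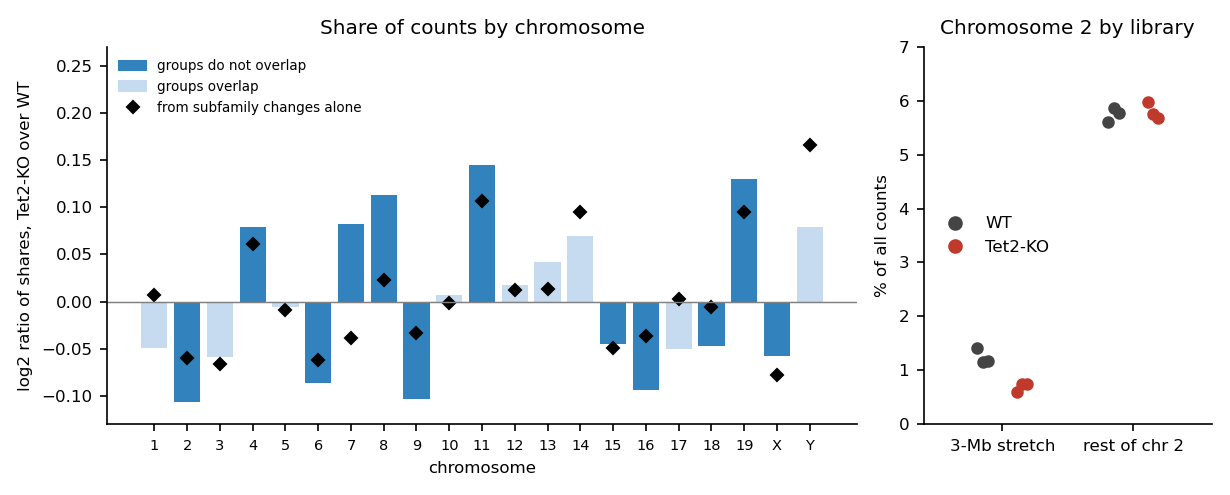
Left, bars show the log2 ratio of each chromosome's share of counts in Tet2-KO over WT, dark where the 3 WT and 3 Tet2-KO libraries do not overlap, and diamonds show the ratio given by subfamily changes alone. Right, the percentage of all counts in each library from 175 to 178 Mb of chromosome 2 (the 3-Mb stretch) and from the rest of chromosome 2: the stretch is lower in Tet2-KO and the rest overlaps.

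Windows of 1 Mb placed these changes along the genome. Of 2670 tested windows 8 were called (0.3% of those tested), 6 higher and 2 lower in Tet2-KO. The windows that rose most were each led by 1 element. The window at 121 Mb of chromosome 8 went from 164, 105 and 96.9 CPM of the tested windows to 1482, 1516 and 1493 CPM (log2 change 3.62 ± 0.25, edgeR adjusted p = 0.000133), and the MMERGLN_LTR provirus described above made 95.1% of the difference. The window at 83 Mb of chromosome 15 went from 185, 138 and 131 CPM to 601, 940 and 741 CPM (log2 2.33 ± 0.26, edgeR adjusted p = 0.0030). An MMERGLN_LTR provirus at chr15:83193759-83202173, which was not called singly, made 96.4% of it. The window at 22 Mb of chromosome 2 (log2 2.28 ± 0.18) was led by the L1MdA_I copy, that at 93 Mb of chromosome 15 (2.06 ± 0.20) by the Lx8, and that at 41 Mb of chromosome 7 (1.54 ± 0.23) by the other L1MdA_I copy. The called window left, at 94 Mb of chromosome 2, held the MMERGLN_LTR provirus there and falls outside the rule for naming windows. The first 4 were called in all 12 settings, and those on chromosome 7 and at 94 Mb of chromosome 2 in 1 of 6 fits that left out a library.

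The windows that fell were less firmly set. The window at 175 Mb of chromosome 2 went from 4851, 4726 and 4336 CPM to 2116, 2655 and 2558 CPM (log2 -0.92 ± 0.15, edgeR adjusted p = 0.038), with no element above 6.49% of the difference. Its neighbours at 176 and 177 Mb had log2 changes of -0.80 ± 0.18 and -0.54 ± 0.16 (edgeR adjusted p = 0.109 and 0.180), and the next on either side were at 0.25 ± 0.25 (174 Mb) and 0.87 ± 0.50 (178 Mb). The call at 175 Mb was lost when any 1 library was left out. The window at 59 Mb of chromosome 10 went from 312, 776 and 600 CPM to 134, 116 and 72.4 CPM (log2 -2.39 ± 0.38, edgeR adjusted p = 0.038). An L1MdA_II at chr10:59027252-59035028 made 40.7% of the difference, and the log2 ratio of shares was -2.13 without it and -2.48 with it. That call was kept in 1 of 6 fits that left out a library.

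Summed per host gene, the elements inside 3049 genes could be tested, and 1 gene was called (0.0328% of those tested). It was Gm47939, a lincRNA at chr10:25899279-25903916, and its sole counted element is the MMERGLN_LTR provirus on chromosome 10, so it repeats that value: 504, 632 and 562.4 CPM of the tested genes in WT and 2214, 2311 and 2769 CPM in Tet2-KO (log2 change 2.1 ± 0.20, edgeR adjusted p = 0.041). Without any 1 library it was not called.

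Gene lists were read for repeats in their introns and exons, not for their mRNA. In 11 lists of marker and pathway genes, 11 members could be tested and 0 were called by edgeR, where 1 of all 3049 genes was called. Of the tested members, Tet1, Asxl2, Rian and Lncenc1 had an unadjusted edgeR p under 0.05 and the others did not. Over all 3049 genes, 579 had an unadjusted edgeR p under 0.05. Of the enzymes that methylate or oxidise cytosine, 3 of 12 were tested. Repeats in Tet1, the TET enzyme with high expression in stem cells, had 19.7, 21.5 and 12.7 counts in WT. In Tet2-KO they had 44.7, 35.4 and 48.3 (log2 change 2.11 ± 0.55, edgeR adjusted p = 0.148), without overlap, as in 817 of the 3049 tested genes (26.8%). Those in Tet2 had a log2 change of 1.75 ± 0.83 (edgeR adjusted p = 0.299) and those in Dnmt3a, a de novo DNA methyltransferase, -1.46 ± 0.95 (edgeR adjusted p = 0.422).

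Among readers of m5C and the H2A deubiquitinase complex, 2 of 14 were tested. Repeats in Asxl2, a subunit of that complex, had 4.50, 7.70 and 7.33 counts in WT and 14.2, 14.7 and 21.2 in Tet2-KO (log2 2.32 ± 0.45, edgeR adjusted p = 0.111), and those in Mbd5, a methyl-binding domain protein, had 0.60 ± 0.46 (edgeR adjusted p = 0.489). Of 18 nuclear and imprinted long non-coding RNAs 3 were tested: Rian, from an imprinted cluster, at 5.80, 3.00 and 2.33 counts in WT and 10.2, 45.0 and 44.0 in Tet2-KO (edgeR adjusted p = 0.148), Lncenc1 at 1.51 ± 0.44 (edgeR adjusted p = 0.160) and Snhg14 at 0.38 ± 0.30 (edgeR adjusted p = 0.505).

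The lists also served to check the cell type. Of 11 naive pluripotency genes 6 had counts and 2 were tested, Esrrb and Tfcp2l1, factors of the naive state (log2 -1.04 ± 1.00 and 0.30 ± 0.72). Esrrb held 183, 42.3 and 16.1 counts in WT, most of them in 1 library. The summed counts in repeats of the 7 feeder fibroblast markers were 0.2 to 6.00 in WT and 2.00 to 11 in Tet2-KO, with 2 of 7 counted, and those of 7 genes of the 2-cell state were at most 1.20 and 4.60, with 1 of 7 counted. No marker of a list of other cells reached the counts needed for a test. Defining markers such as Pou5f1 cannot be read from these tables beyond the repeats inside them.

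Fitted changes of single loci also varied with base composition. When the 19030 tested loci were put in 5 equal groups by the percentage of C on the element's strand, the median log2 change was -0.52 in the lowest group (up to 20.7% C) and 0.75 in the highest (from 22.3% C), with 37.3% and 73.3% of the loci above 0. In between the medians were -0.11, -0.04 and 0.06. Without L1MdA_I and L1MdA_II the lowest and highest groups were at -0.59 and 0.35. In LTR elements they were at -0.67 and 0.71, and in LINEs other than L1MdA_I and L1MdA_II at -0.56 and 0.02. Of the subfamilies compared, MTA_Mm had the lowest median, with 18.2% C and a median log2 change of -2.19. It was followed by MERVL-int (20.2%, -1.40), while L1MdTf_I (21.8%, -0.27) and L1MdA_I (22.5%, 1.54) lay in the middle and MMERGLN_LTR (24.5%, 2.00) above them. The order was not strict: RLTR4_MM-int (28.5%, 0.67) and ERVB7_1-LTR_MM (33.2%, 1.02) had more C and smaller changes than MMERGLN_LTR, and L1MdGf_I (21.9%, -0.36) lay close to IAPEz-int (21.8%, 0.06) in C. These are descriptions across loci that share libraries and sequence, and no p is given.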

How the data were processed

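Per the labels and the methods, the authors used Trimmomatic 0.39 for trimming, HISAT2 2.1.0 for alignment to mm10, the transcriptome and spike-ins, Picard for duplicates and featureCounts for the count per repeat element, whose options are not given in the sources used here. The deposited values are estimated counts per element and library, not normalized, and fractional: 22.3% of non-zero values are whole and 36.9% are below 1. The human table was not used. Elements outside the 4 classes held at most 0.018% of a library.

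Each element was placed by its midpoint on GENCODE release M21 (55450 genes; the authors' release was another) and by its span, which can enclose other insertions: elements whose span exceeds 1.5 times their consensus stretch held 10.3 to 10.7% of the counts. Expected counts were summed for each feature and rounded. Tet2-KO was compared with WT by the edgeR 4.0.16 quasi-likelihood test (R 4.3.3) after filterByExpr and TMM scaling. This was done within each of 5 tables (loci, subfamily by length, subfamily by gene context, host genes, 1-Mb windows). Benjamini-Hochberg adjustment ran over each whole table, with a threshold of 0.05. The prior count was left at the edgeR default. Each SE was taken from the F statistic, as |log2 change| over its root. Shares were compared by the exact permutation test over 20 assignments of 6 libraries, two-sided, with a smallest p of 0.1 (NumPy 2.4.6). Named are up to 10 called loci, 8 called bins (with the other bins of the subfamily), 10 called host genes and 5 called windows in each direction by size of change, with a mean of at least 50 counts for bins and genes, the 5 loci of highest mean count, the chromosomes whose groups do not overlap, and members of the gene lists, up to 4 a list by count. The members, lists and rules were chosen with earlier results of these data known. Alternatives were DESeq2 1.42.0 size factors, library totals, the DESeq2 Wald test, a minimum of 10 counts, leaving out the 10 highest elements or each library, a replicate block, whole spans in genes and, chosen after seeing the data, length on the consensus.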

Additional observations from a re-analysis of the deposited data

How the results depend on the processing

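Direction was the same in all settings for the 9 called loci, the 16 called length bins and the 24 called context bins. Calls were less firm. Loci called went from 9 to 2158 in the DESeq2 Wald test (1507 higher), 1 with a minimum of 10 counts, and 0 to 0 when each library was left out. Length bins went from 16 to 118 in DESeq2 and 3 to 10 without a library, context bins from 24 to 84 and 11 to 21, and windows from 8 to 113 and 4 to 7. The 1 host gene call became 290 in DESeq2, 0 with library totals or a minimum of 10 counts, and 0 to 1 without a library. The cause was not tested. Library totals moved the median log2 change from 0.03 to -0.22 for loci, from 0.08 to 0.21 for length bins and from 0.04 to 0.21 for context bins, and the split of higher calls from 4 of 16 to 6 of 17 (length) and from 7 of 24 to 9 of 22 (context).

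With the replicate number as a block, 0 loci (3128 at an unadjusted p under 0.05 in edgeR), 2 length bins, 10 context bins, 0 host genes (448 unadjusted) and 7 windows were called. Same-numbered WT and Tet2-KO libraries did not deviate together: the correlations were -0.002, -0.014 and -0.023 over loci and -0.040, -0.003 and -0.060 over length bins, so the numbers were not taken as pairs.

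Shares with a ratio near 0 changed sign. From 2000 to 5000 bp the log2 ratio of 0.02 became -0.0300 without the 10 highest elements and -9.92e-05 with length on the consensus. Within LINE it became -0.16 (200 to 500 bp, only elements with counts in all 6 libraries), and from 500 to 1000 bp 0.00186 without the 10 highest elements, 0.0370 with at least 10 counts and -0.108 to 0.0889 without a library. Within LTR it became -0.0413 under 200 bp with at least 10 counts (-0.0104 to 0.201 without a library), -0.0224 to 0.123 from 500 to 1000 bp without a library, and 0.00608 at 5000 bp and over without the 10 highest elements (-0.0590 to 0.0393 without a library). The sense ratio was -0.0728 to 0.00370 without a library, and the plus-strand ratio 0.00319 without the 10 highest elements and -0.0291 to 0.00925 without a library. Chromosomes apart went from 12 to 6 without the 10 highest elements. Of single features, without a library, MTE2b on chromosome 14 ranged from -0.13 (without Tet2-KO replicate 1) to 1.85, Esrrb from -1.58 to 0.73 (without WT replicate 1), Ehmt1 from -1.83 to 1.03 (without WT replicate 1) and Tfcp2l1 from -0.16 (without WT replicate 1; -0.10 without Tet2-KO replicate 2) to 1.17. Depth was uneven at short loci: of elements with at least 50 counts, 72.1% of those under 200 bp and 39.8% of those from 200 to 500 bp had 90% or more of their counts in 1 library.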

Other observations

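Some loci had no counts in Tet2-KO. Of 16676 elements with at least 10 counts in each WT library, 16 (0.0959%) were at 0 in all 3 Tet2-KO libraries: 7 LINE, 7 LTR and 2 SINE elements, 5 of them inside genes, in 13 windows of 1 Mb. The loci were chosen for this pattern and their values are a description. An L1MdFanc_II in an intron of Vps35, a subunit of the retromer, at chr8:85275936-85277316, had 381, 324 and 133 counts in WT. An L1MdA_VII in an intron of Sae1, part of the SUMO-activating enzyme, at chr7:16352904-16354388, had 33.2, 35.1 and 51.5. Of the 16, 3 were RMER12C fragments of 87 to 88 bp on chromosome 2, in the stretch from 175 to 178 Mb, and 3 were L1MdA_V copies of 5190 to 5191 bp on chromosome 5, at 94589437, 94928375 and 95245424, with 32.2 to 147 counts a library in WT. Reads may be divided among alike copies, so such loci are not separate observations. The RMER12C fragments are also part of the called RMER12C length bin and of the RMER12C value of that stretch given above. In the edgeR test of single loci the lowest adjusted p among the 16 was 0.0904. The reverse pattern, at least 10 counts in each Tet2-KO library and 0 in each WT library, was held by 1 of 11755 elements, on an unplaced contig. The Tet2-KO libraries were shallower, so 0 counts are more easily reached there than in WT.

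By chromosome, single tested loci on Y stood highest in Tet2-KO: the 556 tested had a median log2 change of 0.50, with 69.1% above 0, where the other chromosomes had medians between -0.07 and 0.11. The share of all counts on Y was 2.12% ± 0.108 in WT and 2.24% ± 0.0366 in Tet2-KO (SD, n = 3) and overlapped between the groups, and the ratio given by subfamily changes alone was 0.17 on the log2 scale. Of 119 tested ETnERV-int copies, inner parts of early transposon proviruses of the ERVK group, 100 had a fitted change above 0 (median 0.83), and of 110 MMVL30-int copies 97 had (median 0.39). IAPEz-int, the inner part of the most common IAP type, was near the middle, with 883 of 1676 above 0 (median 0.06).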
